A study of Arabidopsis thaliana with 4 samples.

Results

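The genes described here encode basic leucine zipper (bZIP) transcription factors of Arabidopsis thaliana, in strigolactone-deficient seedlings given a synthetic strigolactone or the solvent. They were taken from a list of 60 bZIP loci, HY5 and the ABF genes included. A locus was kept where the platform's probe table gave it a probe set, that is, a group of oligonucleotides read as 1 value, that was annotated to that gene alone. This left 23 genes with 1 probe set each, among 22746 probe sets tested. The other 37 loci had no such probe set in the tables used and are not analysed here.

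All 4 samples were RNA from whole seedlings of the Col strain, 14 days old. All were max3 mutants. They lack a carotenoid-cleaving enzyme of strigolactone synthesis, so the controls are without the hormone too. In the mock group 2 samples had received dimethyl sulfoxide (DMSO), and in the GR24 group 2 samples had received 1 µM GR24, a synthetic strigolactone, in both cases for 90 min. Each group has a replicate 1 and a replicate 2, and the series text describes 2 independent analyses that included growing the seedlings, so arrays with the same number were compared as a pair. The values are log2 expression values, with array medians from 7.03 to 7.06. Precision is limited by there being 2 arrays per group. The leaf genes RCA (Rubisco activase, log2 values from 13.43 to 13.56) and LHCB4.1 (a light-harvesting protein, 13.02 to 13.37) and the root and hypocotyl gene PYK10 (a beta-glucosidase, 13.10 to 13.26) all lay high on every array. These 3 were chosen after their values were seen.

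A bZIP protein binds DNA as a dimer. Its basic region contacts the DNA, often at sites with an ACGT core, and its leucine zipper sets which partners it can pair with. In Arabidopsis the family is sorted into groups named by letters, which include factors of abscisic acid response (A), endoplasmic reticulum (ER) stress (B and K), salicylic acid response (D), light response (H), osmotic and touch response (I) and low energy and growth (C and S).

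The 23 measured genes fell unevenly into these groups. They included both group E loci (BZIP34 and BZIP61), the only group K locus (BZIP60), 7 of 8 group I loci, 2 of 3 group B loci and 6 of 15 group S loci. Group A was represented by 2 of 11 loci (EEL and FD), group H by HYH alone of 2 loci, and 2 of the 3 loci not put in a group were measured. Groups C, D, F and G, with 15 loci in all, had no measured gene. HY5, ABI5, the ABF genes and the TGA factors are therefore not analysed here.

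The comparison of GR24 with mock addressed whether added strigolactone changes transcript levels in seedlings that cannot make their own. None of the 23 bZIP genes passed the test, with 0 higher and 0 lower at an adjusted p under 0.05 (limma with the replicate number as a block, Benjamini-Hochberg adjusted over the whole array). Of all tested probe sets 0.303% were called, 0.145% as higher and 0.158% as lower. At an unadjusted p under 0.05, 4 bZIP genes were lower with GR24 (17.4% of the 23, against 3.9% of all tested probe sets) and 0 were higher (against 3.57%, with 7.47% of probe sets in either direction). These 4 were BZIP34, BZIP61, bZIP42 and bZIP52. The smallest absolute change among called probe sets was 0.65 on the log2 scale. In whole seedlings, less RNA per cell and fewer cells of a type cannot be told apart, for these genes and all that follow.

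**Figure D1:**
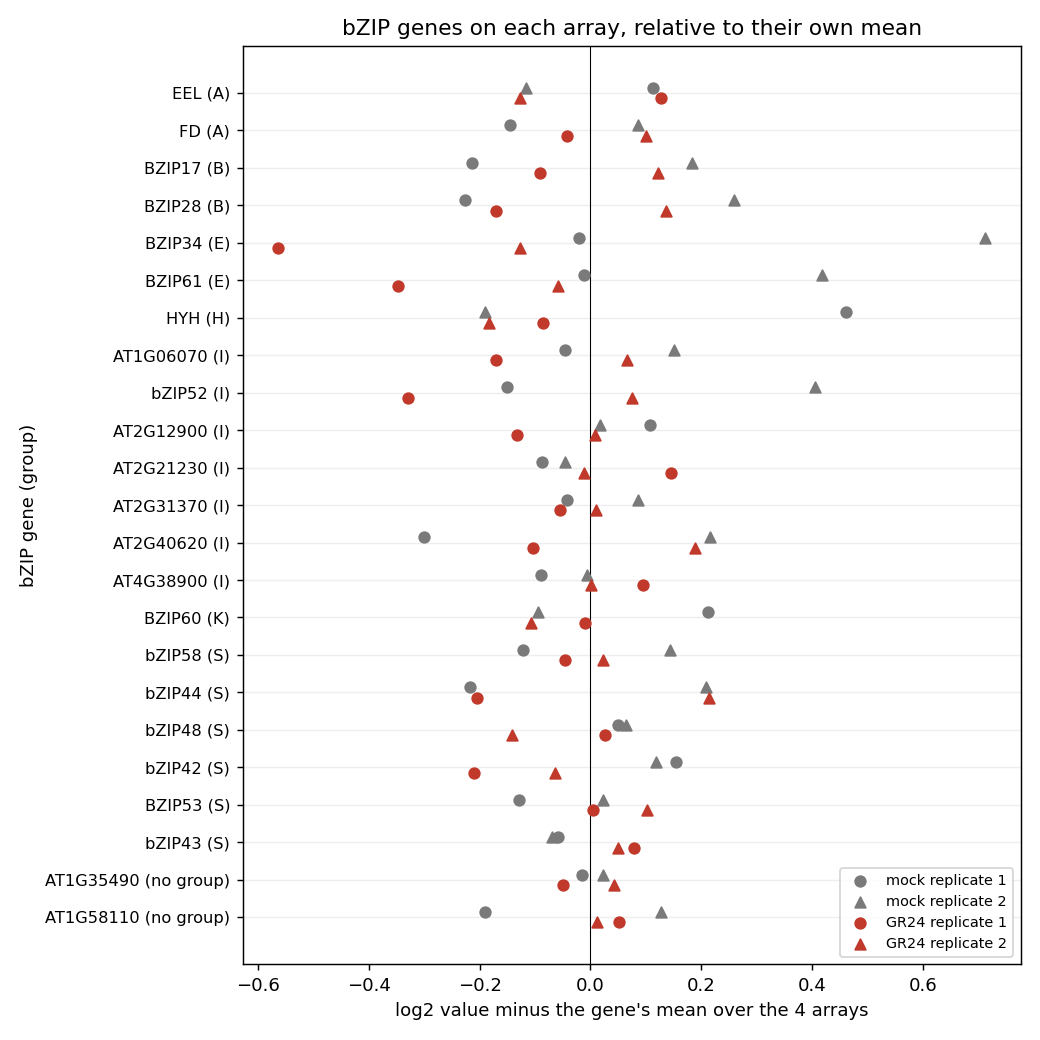
Log2 value of each of the 23 bZIP genes on each array, minus that gene's mean over the 4 arrays (x axis, log2 units), with the bZIP group letter beside the name. Grey points are mock, red points GR24, circles replicate 1 and triangles replicate 2; for BZIP34 and BZIP61 both red points lie left of both grey points, and for bZIP44 the points part by replicate number instead.

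The largest differences were in group E. BZIP34 encodes a factor needed for normal pollen development, and BZIP61 encodes its closest relative in the family. The log2 value of BZIP34 was 5.20 in mock replicate 1 and 5.94 in mock replicate 2, against 4.66 in GR24 replicate 1 and 5.10 in GR24 replicate 2. Both GR24 arrays lay below both mock arrays, and the gap between GR24 replicate 2 and mock replicate 1 was small beside the gap between the mock arrays. Replicate 2 was the higher one in both treatments.

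Within the pairs BZIP34 differed by -0.54 in replicate 1 and -0.84 in replicate 2. The fitted log2 difference was -0.69 ± 0.11 (moderated SE, n = 2 pairs, adjusted p = 0.056 in limma), a level 1.61-fold lower with GR24 and just outside the threshold. Its 95% interval ran from -0.95 to -0.44, unadjusted for the number of probe sets. With limma's default variance prior in place of the likelihood prior used here, the same difference passed (adjusted p = 0.00261 in limma). When 16 was added to the linear values, which compresses dim signals, it was -0.49 (adjusted p = 0.194 in limma). In the fit without the replicate block the adjusted p was 1 in limma. Leaving single arrays out of that fit moved the difference from -0.69 to -1.06 without mock replicate 1, and to -0.32 without mock replicate 2.

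BZIP61 had log2 values of 9.39 and 9.82 in mock replicates 1 and 2, and of 9.06 and 9.34 in GR24 replicates 1 and 2. The groups did not overlap, although GR24 replicate 2 was close to mock replicate 1. The differences were -0.34 in replicate 1 and -0.48 in replicate 2. The fitted difference of -0.41 ± 0.10 (n = 2 pairs, 95% interval from -0.64 to -0.17) did not pass (adjusted p = 0.243 in limma), and corresponds to a level 1.33-fold lower. In the fit without the block it was -0.62 without mock replicate 1 and -0.19 without mock replicate 2. BZIP34 and BZIP61 were the 2 bZIP genes with a difference of -0.3 or lower in both pairs, a bound chosen after their values were seen, which 1.03% of all tested probe sets met. The other 21 bZIP genes had fitted differences from -0.27 to 0.13, with adjusted p from 0.562 to 0.999 in limma.

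**Figure D2:**
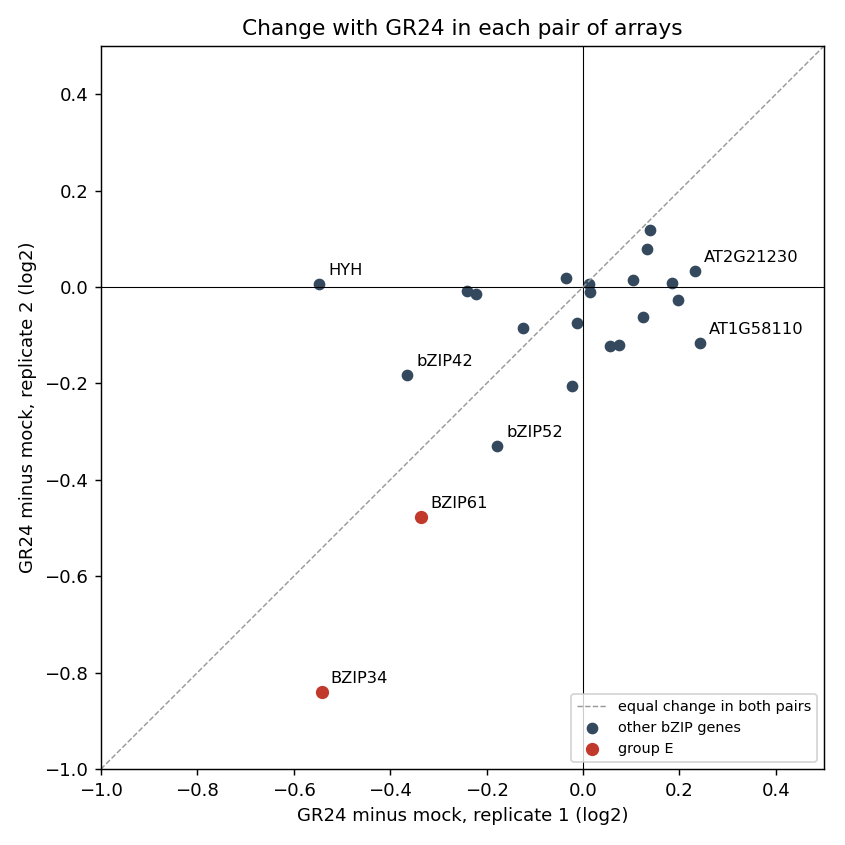
Difference between GR24 and mock in replicate 1 (x axis) and replicate 2 (y axis), both in log2 units, for the 23 bZIP genes; red points are group E. BZIP34 (-0.54 and -0.84) and BZIP61 (-0.34 and -0.48) lie low in both pairs, HYH (-0.55 and 0.01) in the first pair alone, and most other points near 0.

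HYH is the close homologue of HY5, and both proteins promote light-dependent seedling development. Its log2 value was 8.76 in mock replicate 1, 8.11 in mock replicate 2, 8.22 in GR24 replicate 1 and 8.12 in GR24 replicate 2. Mock replicate 1 stood above the other 3 arrays, which lay close together. GR24 minus mock was thus -0.55 in the first pair and 0.01 in the other, and the fitted value of -0.27 ± 0.14 did not pass (adjusted p = 0.746 in limma). In a fit without the block and without mock replicate 1, it was 0.06. Whether the pairs differ from each other could not be tested, since each treatment has 1 array per pair.

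Group I holds VIP1 and its relatives, which respond to osmotic change and touch. VIP1 itself is not analysed here. Of the 7 measured genes 4 were lower with GR24 in both pairs, 2 were higher in both and 1 had opposite signs. The shares over all tested probe sets were 23.3%, 28.7% and 48%, in that order. Some of these signs rest on a difference near 0 in 1 pair. bZIP52 had log2 values of 6.31 and 6.87 in the mock arrays and 6.13 and 6.54 in the GR24 arrays, in the order replicate 1 and 2. It was lower in each pair, but the groups overlapped because both replicate 2 arrays were high. Its fitted difference was -0.25 ± 0.10 (adjusted p = 0.617 in limma), and in a fit without the block and without mock replicate 2 it was 0.02.

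AT4G38900, also called bZIP29, acts in the control of cell number in leaf and root meristems. It had log2 values of 7.42 and 7.50 in the mock arrays and 7.60 and 7.51 in the GR24 arrays. AT2G21230, also called bZIP30, had 8.47 and 8.51 in the mock arrays and 8.70 and 8.55 in the GR24 arrays. For both genes the GR24 arrays lay above the mock arrays, with GR24 replicate 2 only just so, and GR24 replicate 1 gave most of the difference. The fitted values were 0.10 ± 0.10 for AT4G38900 and 0.13 ± 0.11 for AT2G21230 (adjusted p = 0.919 and 0.874 in limma).

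Of the remaining group I genes, AT1G06070 (bZIP69) differed by -0.12 and -0.09 in replicates 1 and 2, and AT2G31370 (PosF21) by -0.01 and -0.08. AT2G12900 (bZIP33 in the gene table) differed by -0.24 and -0.01. AT2G40620 (bZIP18) differed by 0.20 in replicate 1 and by -0.03 in replicate 2. The 95% intervals of all 4 held 0.

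Group S factors are small, and several act with group C partners when sugar or energy is low. BZIP53, which drives seed maturation genes and takes part in the low energy response, had log2 values of 11.88 and 12.03 in the mock arrays and 12.01 and 12.11 in the GR24 arrays. GR24 minus mock was 0.13 in the first pair and 0.08 in the other, and the groups overlapped. The fitted value was 0.11 ± 0.10 (adjusted p = 0.902 in limma).

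bZIP44, a relative of BZIP53 that acts in seed germination, had log2 values of 9.26 and 9.68 in the mock arrays and 9.27 and 9.69 in the GR24 arrays. The treatments differed by 0.01 in both pairs, while the replicates stood far apart. The fitted value was 0.01 ± 0.10 (95% interval from -0.22 to 0.24).

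The other measured group S genes, bZIP42, bZIP43, bZIP48 and bZIP58, have few described roles. bZIP42 had log2 values of 4.15 and 4.11 in the mock arrays and 3.78 and 3.93 in the GR24 arrays. Both GR24 arrays were lower, and the fitted difference of -0.27 ± 0.10 did not pass (adjusted p = 0.562 in limma). With 16 added to the linear values it was -0.14. bZIP43 was higher on both GR24 arrays, with differences of 0.14 and 0.12, and bZIP48 was lower on both, with -0.02 and -0.21. bZIP58 had 0.07 and -0.12.

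Of these 4 genes bZIP42, bZIP43 and bZIP48 were dim, as were FD, AT1G35490 and AT2G12900. These 6 genes had a mean log2 value in the lowest 25% of all tested probe sets, and their values over all arrays lay between 3.34 and 4.60. No detection calls were used, so it is not known whether they were above background. Their fitted differences ran from -0.27 to 0.13.

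None of the 3 measured ER stress factors of groups B and K passed the test. BZIP17 and BZIP28 are made as proteins anchored in the ER membrane. They are cut by proteases, S2P among them, so that the factor can enter the nucleus. BZIP28 had log2 values of 9.09 and 9.58 in the mock arrays and 9.15 and 9.45 in the GR24 arrays. BZIP17 had 7.96 and 8.36 in the mock arrays and 8.08 and 8.29 in the GR24 arrays. Both genes were slightly higher with GR24 in replicate 1 (0.06 and 0.12) and lower in replicate 2 (-0.12 and -0.06), so their groups overlapped and their fitted differences were -0.03 ± 0.10 and 0.03 ± 0.11.

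BZIP60 messenger RNA is spliced by the ER stress sensor IRE1, and these values do not separate the spliced form. Its log2 value was 10.38 in mock replicate 1 and 10.07 in mock replicate 2, against 10.15 and 10.06 with GR24. Mock replicate 1 was the highest array, as for HYH, and the fitted difference was -0.12 ± 0.11 (adjusted p = 0.895 in limma).

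Group A was represented by a seed factor and a flowering factor. EEL competes with ABI5 at the promoter of a late embryogenesis gene, and its log2 values were 5.64 and 5.41 in the mock arrays and 5.66 and 5.40 in the GR24 arrays. The treatments matched closely within each pair, and the fitted difference was 0.00 ± 0.10. FD, the partner of the flowering signal FT at the shoot apex, had 4.35 and 4.58 in the mock arrays and 4.46 and 4.60 in the GR24 arrays. Its fitted difference was 0.06 ± 0.10, with overlapping groups. The ungrouped AT1G58110 differed by 0.24 in replicate 1 and -0.12 in replicate 2, and AT1G35490 by -0.04 and 0.02.

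Over the 23 genes the median log2 difference was -0.02, against 0.01 over all tested probe sets, and the median absolute difference was 0.10 against 0.08. Both pairs had a negative sign in 9 genes (39.1%, against 23.3% of all tested probe sets) and a positive sign in 6 (26.1%, against 28.7%). The pairs disagreed in sign in 8 genes (34.8%, against 48%). Some shared signs rest on a replicate 2 difference near 0, negative in BZIP60 and AT2G12900 (-0.01 each) and positive in AT4G38900 (0.01). Both GR24 arrays lay below both mock arrays in 5 genes (21.7%, against 10.2%), namely BZIP34, BZIP61, bZIP42, bZIP48 and AT2G12900. They lay above in 3 (13%, against 12.9%), namely AT2G21230, AT4G38900 and bZIP43. Of these genes bZIP42, bZIP48, AT2G12900 and bZIP43 were dim. Some groups were barely apart. The nearest mock and GR24 arrays were at 3.863 and 3.855 for AT2G12900, 3.533 and 3.510 for bZIP48, and 7.501 and 7.509 for AT4G38900. The 95% intervals, unadjusted for the number of probe sets, held 0 in 19 genes and lay below 0 in BZIP34, BZIP61, bZIP42 and bZIP52.

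**Figure D3:**
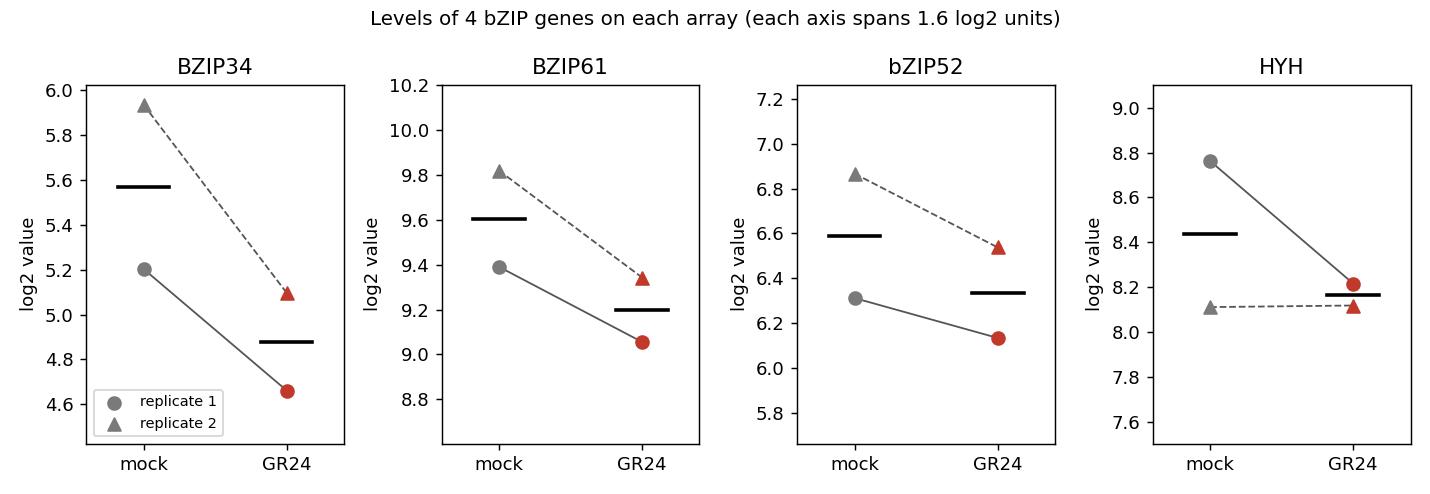
Log2 values of BZIP34, BZIP61, bZIP52 and HYH in the mock and GR24 arrays, with lines joining arrays of the same replicate number (circles and solid lines replicate 1, triangles and dashed lines replicate 2) and black bars for group means, n = 2. Each panel spans the same range in log2 units; lines slope down in both pairs for BZIP34, BZIP61 and bZIP52, and in replicate 1 alone for HYH.

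The same genes were compared between the replicate numbers with treatment held constant, which contrasts the seedling preparations together with any array processing that went with them. Here 6 bZIP genes were higher in replicate 2 (26.1% of the 23, against 8.14% of all tested probe sets) and 0 were lower (against 8.59%), at an adjusted p under 0.05 in limma. They were BZIP34, BZIP61, bZIP52, bZIP44, BZIP28 and AT2G40620. BZIP34 was higher in replicate 2 by 0.73 in the mock arrays and 0.44 in the GR24 arrays, a fitted difference of 0.58 (adjusted p = 0.0116 in limma). That is close in size to its difference between the treatments.

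bZIP52 was higher in replicate 2 by 0.55 in the mock arrays and 0.40 in the GR24 arrays (adjusted p = 0.0177 in limma). bZIP44 was higher by 0.43 and 0.42 (adjusted p = 0.0242 in limma), the closest match of these genes between the treatments. AT2G40620 was higher by 0.52 and 0.29 (adjusted p = 0.0353 in limma), BZIP28 by 0.48 and 0.31 (adjusted p = 0.0354 in limma) and BZIP61 by 0.43 and 0.29 (adjusted p = 0.0467 in limma). In these genes the difference was smaller in the GR24 arrays, though barely so for bZIP44. A smaller difference there is the same contrast as GR24 minus mock being lower in replicate 2 than in replicate 1. It was not particular to these genes, since BZIP17 and AT1G58110 also had it, while HYH and BZIP60 went the other way. Over the 23 genes the median of GR24 minus mock was 0.01 in replicate 1 and -0.03 in replicate 2. Over all tested probe sets these medians were 0.0197 and 0.00468. The contrast could not be tested with 1 array for each treatment and replicate, and its share over all probe sets was not counted.

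The other 17 genes had fitted differences between replicates from -0.37 to 0.30, with adjusted p from 0.0829 to 0.98 in limma. BZIP17, which like BZIP28 is an ER membrane factor, was higher in replicate 2 by 0.40 and 0.21 without passing (adjusted p = 0.0829 in limma). HYH and BZIP60 pointed the other way. Replicate 2 minus replicate 1 was -0.65 in the mock arrays and -0.10 in the GR24 arrays for HYH, and -0.31 and -0.10 for BZIP60. Over the 23 genes the median difference between replicates was 0.12, against -0.02 over all tested probe sets.

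**Figure D4:**
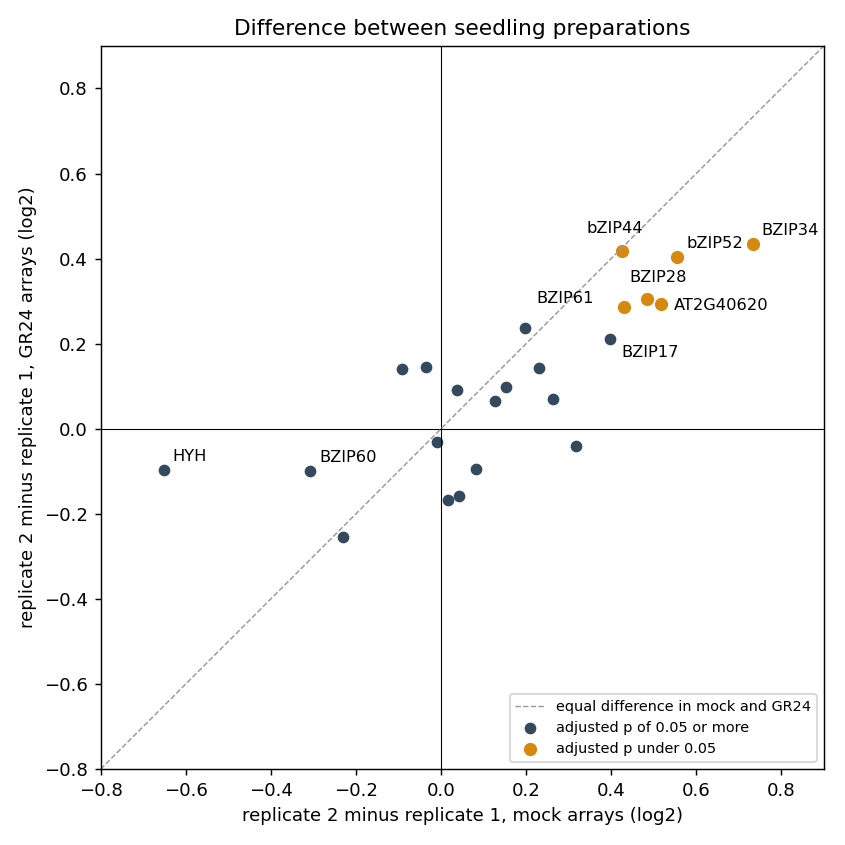
Difference between replicate 2 and replicate 1 in the mock arrays (x axis) and in the GR24 arrays (y axis), both in log2 units, for the 23 bZIP genes; orange points had an adjusted p under 0.05. The 6 orange points all lie above 0 on both axes, while HYH and BZIP60 lie below 0 on both.

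Genes of pathways around the bZIP factors, partners and response genes alike, were examined from 7 lists with 92 genes in all. The probe table gave 9 of them a probe set annotated to that gene alone. The others had no such entry and are not analysed here, whether or not the array holds oligonucleotides for them. None of the 9 passed, with 0 higher and 0 lower. An unadjusted p under 0.05 in limma was found for 2 of the 9, against 7.47% of all tested probe sets. These 2 went in opposite directions, with AT4G26120 higher (0.67) and GRX480 lower (-0.49). The median log2 difference of the 9 was -0.16, against 0.01 over all tested probe sets, with 5 genes below 0 and 4 above. The lists of light signalling around HY5 and of flowering around FD had no measured gene.

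The list of salicylic acid genes and TGA partners had 3 of 15 genes measured. AT4G26120, listed as NPR2, had log2 values of 4.66 and 4.69 in the mock arrays and 5.45 and 5.24 in the GR24 arrays. Both GR24 arrays were above both mock arrays, with a fitted difference of 0.67 ± 0.11 (adjusted p = 0.056 in limma, just outside the threshold). GRX480, a glutaredoxin that binds TGA factors, had 7.37 and 8.32 in the mock arrays and 6.71 and 7.99 in the GR24 arrays. It was lower in each pair, but the replicates differed by more than the treatments, and the fitted difference of -0.49 ± 0.11 did not pass (adjusted p = 0.189 in limma). ROXY1, a floral glutaredoxin that binds the TGA factor PAN, differed by -0.16 ± 0.10.

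In the ER stress list 3 of 13 genes were measured, with a median difference of -0.17. S1P, a protease that cuts BZIP17, differed by -0.16 and -0.19 in replicates 1 and 2 (fitted -0.17 ± 0.10, adjusted p = 0.794 in limma). AT4G20310, listed as S2P, differed by -0.06 and -0.30, and the ER chaperone gene ERDJ3B by 0.02 and 0.04. The abscisic acid list had 1 of 23 genes measured, the cold and abscisic acid induced COR15A, with 0.17 ± 0.11. The zinc deficiency list had 1 of 9, the zinc transporter gene ZIP9, with -0.19 ± 0.10. The low energy list had 1 of 8, and its gene had opposite signs in the pairs.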

How the data were processed

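RNA from 2 mock and 2 GR24 samples was measured on single-channel oligonucleotide arrays. The deposited log2 values were made with RMA by the authors, per the submitters' processing notes. Its version is not given in the sources used here. RMA removes background, gives arrays a common distribution and summarises each probe set. Of 22810 probe sets, 64 were controls, and the other 22746 were all tested, dim ones included. The probe table gave 1 gene for 13513 of them and several for 503, and 8730 were not listed. Loci, symbols and synonyms came from the RefSeq gene table (assembly TAIR10.1).

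limma 3.58.1 in R 4.3.3 was run on all tested probe sets, two-sided, with the replicate number as a block and 1 residual degree of freedom. Maximum likelihood set the prior variance (7.62 prior degrees of freedom, prior SD 0.107), so a moderated SE and the intervals made from it say little about a gene's own spread. The scripts were tested on simulated data. The simulated variances were drawn from the likelihood prior fitted to these arrays, so the choice of that prior was not tested. The pairing comes from the series text. Same-numbered arrays deviated from their group means together (r = 0.712 across probe sets). Nothing separates cultures within a preparation, so the p-values reflect only how these arrays vary. All measured bZIP genes are named. Of the lists of pathway genes, genes past the threshold and up to 3 more per list with the same sign in both pairs are named. The members, lists and the likelihood prior were chosen with earlier results of these data known. Alternatives changed the block, prior, scaling, offset, filter, threshold and arrays kept.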

Additional observations from a re-analysis of the deposited data

How the results depend on the processing

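In the fit with no replicate block, 0 of all tested probe sets and 0 bZIP genes passed, and BZIP34 had an adjusted p of 1 in limma. The 69 calls over all tested probe sets became 281 with limma's default prior, 110 at an adjusted p under 0.1 and 24 with 16 added to the linear values. The default prior and the looser threshold each called 1 bZIP gene, BZIP34 in both cases, and 2 and 1 list genes. The causes were not tested. In bZIP genes of no clear direction, repeated quantile normalization and centring on the median turned the sign of bZIP44 (-0.0156 and -0.00636) and EEL (-0.0165 and -0.0139). Of 155 values of bZIP genes under settings that kept all arrays, 149 stayed on the same side in sign and threshold. Changing the block, prior, threshold or filter leaves the fitted difference as it was, so the sign could not turn there. Only the repeated normalization, centring and offset could turn a sign. With single arrays left out of the fit without the block, where the lone array is assumed to vary like the other group, 0 probe sets passed. Such fits mix the difference between preparations into the change. In them 14 of 23 bZIP genes changed sign, with AT1G06070 from -0.223 to 0.0135, AT1G35490 from -0.0542 to 0.0378, AT1G58110 from -0.0948 to 0.222, AT2G31370 from -0.108 to 0.0195, AT2G40620 from -0.173 to 0.343, BZIP17 from -0.168 to 0.229, BZIP28 from -0.275 to 0.209, bZIP44 from -0.204 to 0.222, bZIP52 from -0.531 to 0.024, bZIP58 from -0.154 to 0.11, BZIP60 from -0.271 to 0.0356, EEL from -0.125 to 0.129, FD from -0.0565 to 0.175 and HYH from -0.596 to 0.056. BZIP34 and BZIP61 kept their sign in all 4, as did AT2G12900, AT2G21230, AT4G38900, bZIP42, bZIP43, bZIP48 and BZIP53. The 6 genes that differed between replicates became 7 with the default prior and stayed 6 in number with centring or the offset. Averaging probe sets of a gene was not run, since each gene had 1. No detection calls were used, so dim probe sets have no stated background.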
